A study of Homo sapiens with 96 samples.

Results

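Ribosome biogenesis genes encode the machinery that makes ribosomes, as opposed to the ribosomal proteins that end up in them. RNA polymerase I transcribes the ribosomal RNA precursor in the nucleolus, small nucleolar ribonucleoproteins (snoRNPs) modify it, and separate sets of assembly factors fold and cut the precursors of the small (40S) and large (60S) subunits. Many of these genes are known targets of the transcription factor MYC, and their induction is part of the growth response of B lymphocytes to antigen receptor stimulation.

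A list of 45 such genes was followed by symbol through 4 human B lymphoma cell lines. Of these, 38 had a probe set of their own on the Affymetrix HG-U133 Plus 2.0 array (77 probe sets in all), of 19775 genes with such a probe set in the series. NOP56, DKC1, BOP1 and PPAN were represented only by probe sets shared with another gene, and GNL3, DDX18 and EBNA1BP2 matched none by name. These 7 genes were given no values. Each of the 38 genes was counted by its probe set of highest mean signal, and all 38 had a mean above a signal of 100 in at least 1 group of each line, so no gene was lost to the filter on low signals. The 38 comprised 2 subunits of RNA polymerase I, 6 snoRNP genes, 5 genes of abundant nucleolar proteins, 15 factors of 40S assembly and 10 factors of 60S assembly.

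The series held 96 arrays, 24 per line, in groups of 3. REC1 and Z138 are mantle cell lymphoma cultures, and the other pair came from lymphomas of the diffuse large B cell type. All groups were harvested at 4 h. In every line, cells were treated with anti-IgM, an anti-IgM F(ab')2 fragment, which lacks the Fc part (anti-IgM-Fab2), anti-IgG, the mouse anti-CD20 antibody LT20, the chimeric anti-CD20 antibody rituximab, or human IgG as isotype control. REC1 was also treated with a rituximab F(ab')2 fragment (rituximab-Fab2). The labels give 10 µg/ml for every antibody, whereas the methods give a lower, equimolar mass for the anti-IgM fragment, so the fragment and the whole antibody may not have been applied at the same mass. Untreated cells (Control) numbered 3 arrays in REC1 and 2 sets of 3, Control replicates 1-3 and 4-6, in each other line. Anti-IgG was compared with Control replicates 4-6 in SUDHL4, OciLy18 and Z138, and every other treatment with Control replicates 1-3 of its line. SUDHL4 was described in the study as carrying IgG and no IgM on its surface, and every line is a single established culture, so the spread between arrays does not cover that between tumours. The labels do not say whether the 3 arrays of a group came from separate cultures, and p-values then measure only the spread between these arrays, which may be technical.

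Signals were linear intensities scaled by the authors to nearly the same total on each array (8528613 to 8530013). Because of this scaling, a change is relative to the whole of each array's signal and not to the cell. Of 6 B cell markers, 6 had a mean signal above 100 in SUDHL4, REC1 and OciLy18, and 5 in Z138, where CD22 averaged 25.8. All monocyte and natural killer cell markers had line means below 17. Of 5 T cell markers, CD3D was at 1022 in REC1 and CD247 at 105 in SUDHL4, and the others were below 100 in each line. Changes were counted at an adjusted p below 0.05 (limma per line on log2 signals, Benjamini-Hochberg over all tested probe sets), and log2 changes are treated over untreated, given ± SE.

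One sequence feature was more frequent in the promoters of these genes than in all promoters, although most of their windows lacked it. The window of 250 bases before and 50 bases after the RefSeq transcription start (GRCh38.p14) was on hand for 37 of the 45 genes, in 46 windows. The E-box CACGTG, the palindromic hexamer bound by MYC with its partner MAX and by other factors of the same class, was found in 19 of the 46 windows (41.3%), against 7.26% of all 35116 windows in the table. By gene, it was present in 18 of 37 genes on the list (48.6%), against 8.77% of 27305 genes. Stretches of 30 bases around the E-box, in capitals, are printed for 6 genes that rose with anti-IgM in REC1 and for FBL, which did not, to show that the hexamer was found in both. They read 5′ to 3′ on the strand of the gene.
LYAR: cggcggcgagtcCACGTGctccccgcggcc
RRP9: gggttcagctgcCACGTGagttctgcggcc
UTP4: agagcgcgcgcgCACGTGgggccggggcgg
DDX21: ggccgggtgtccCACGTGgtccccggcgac
WDR43: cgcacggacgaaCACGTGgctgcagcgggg
PNO1: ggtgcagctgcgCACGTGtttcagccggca
FBL: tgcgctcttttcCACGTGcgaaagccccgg
The first base of the E-box lay 64 bases upstream of the start for LYAR (chr4:4290068-4290097, minus strand), 5 upstream for RRP9 (chr3:51941892-51941921, minus), 16 upstream for UTP4 (chr16:69132621-69132650, plus) and 31 upstream for DDX21 (chr10:68956604-68956633, plus). LYAR and DDX21 had 2 windows each, and the distance is to the start of only 1 of them. In both, the annotated gene begins upstream of the printed stretch. In WDR43 (chr2:28894658-28894687, plus), PNO1 (chr2:68157885-68157914, plus) and FBL (chr19:39846356-39846385, minus) it began at base 4, 10 and 7 of the transcript. A match describes the letters in this window and is no evidence of binding in these cells.

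Against untreated cells, most of the ribosome biogenesis genes were higher in REC1 at 4 h with anti-IgM, anti-IgG or either anti-CD20 antibody. Against isotype control, this held for both forms of anti-IgM, anti-IgG and LT20, but with rituximab only DDX10 passed. With anti-IgM, 31 of 38 genes (81.6%) rose and none fell, whereas 26.7% of all genes tested were higher and 34% lower. The median log2 change of the 38 genes was 0.69, against -0.05 over all genes tested. With anti-IgM-Fab2, 31 genes rose and none fell (all genes, 30.8% higher and 34.3% lower), with a median of 0.75. With anti-IgG, 32 genes rose and none fell (all genes, 25.4% and 33.4%), with a median of 0.57. LT20 raised 31 genes and lowered none (21.6% and 23.5%), with a median of 0.51. Rituximab raised 26 and lowered none (12.8% and 15.3%), and rituximab-Fab2 raised 30 and lowered none (17.9% and 19.3%), with medians of 0.36 and 0.46. The 6 comparisons share the same 3 untreated arrays and are therefore not independent. At an unadjusted p below 0.05, no gene was lower in any of these 6 comparisons.

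**Figure D1:**
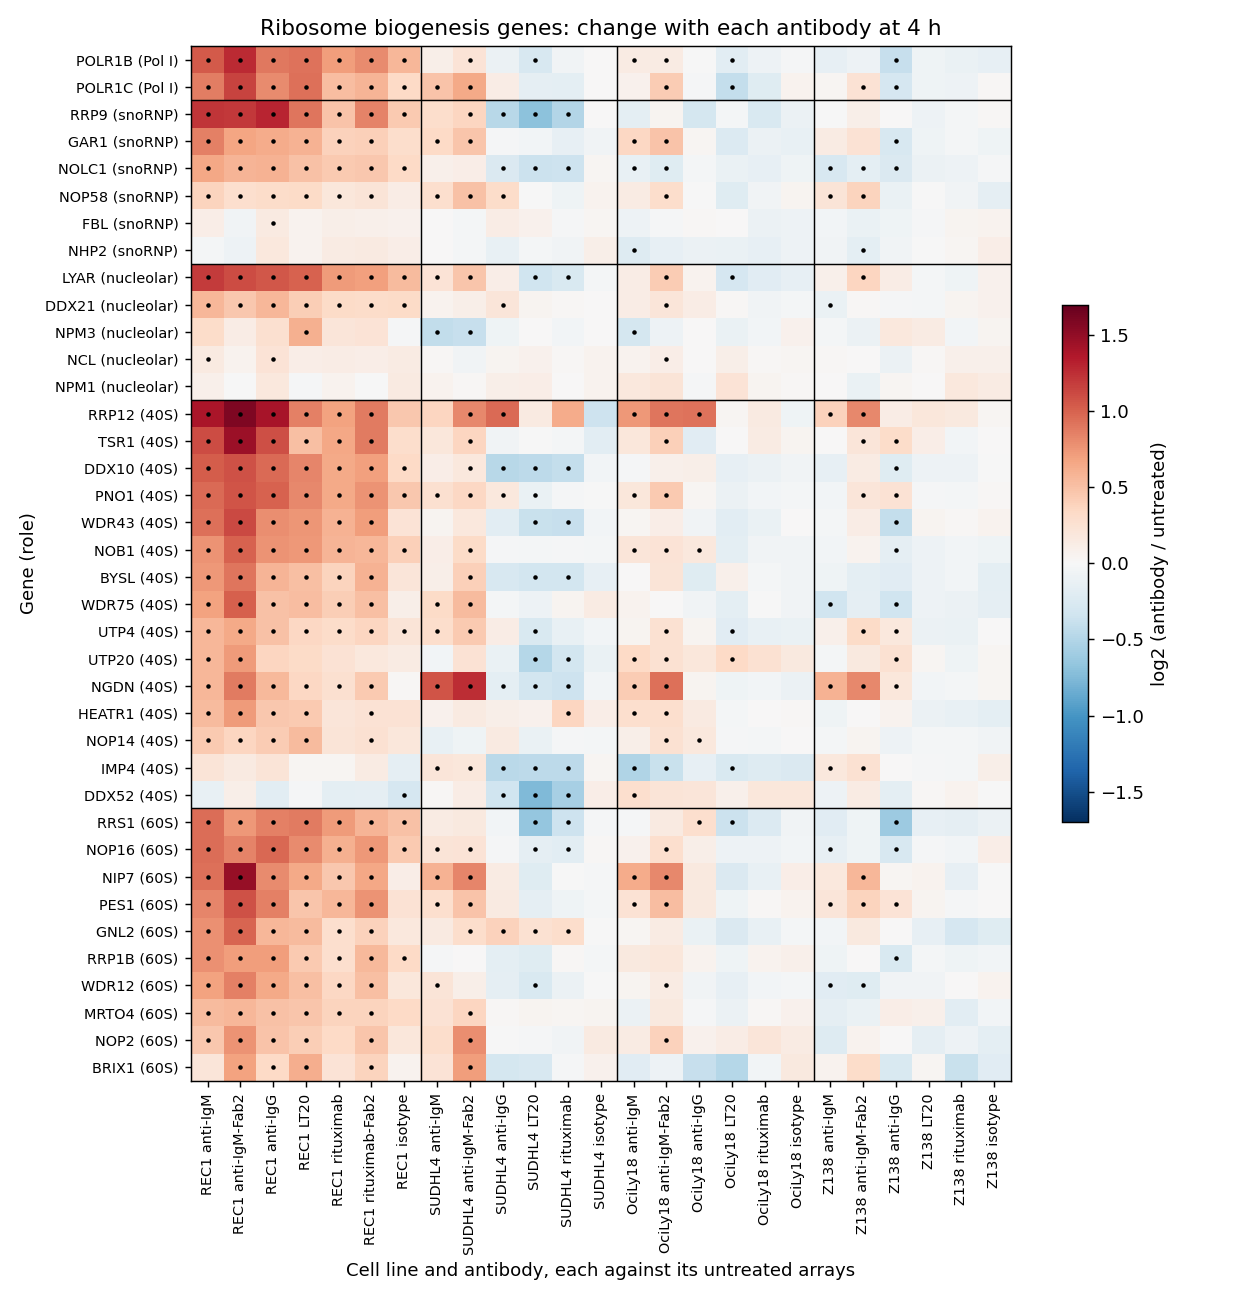
Log2 change of the 38 measured ribosome biogenesis genes (rows, grouped by role) with each antibody over the untreated arrays of its line (columns), 3 arrays per group. Red is higher and blue lower with the antibody, and dots mark an adjusted p below 0.05; in REC1, 31 of 38 genes carry a dot with anti-IgM, and none with rituximab in OciLy18 or Z138.

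The isotype control also raised some of these genes in REC1. Human IgG raised 13 of 38 genes (34.2%) and lowered 1, DDX52, whereas 6.77% of all genes were higher and 8% lower. DDX52 did not pass without any 1 of the Control arrays or without isotype replicate 1 or 2. The median log2 change was 0.23. The largest rise was that of POLR1B, at 563, 569 and 588 with isotype control, against 401, 344 and 424 in untreated cells (log2 0.56 ± 0.10, adjusted p = 0.000682 by limma), although a further probe set of this gene had the opposite sign with isotype control. LYAR followed with 0.53, RRS1 with 0.50 and PNO1 with 0.46 on the log2 scale. Set against the isotype arrays in place of the untreated ones, anti-IgM raised 27 genes (22.4% of all genes higher, 25.2% lower), anti-IgG 27 (19.9% and 23.5%) and LT20 20 (13.6% and 9.94%), and none fell in these 3 comparisons. Anti-IgM-Fab2 raised 29 and lowered 1, FBL (29.3% and 28.4%). Rituximab-Fab2 raised 10 (5.37% and 3.65%) and rituximab 1, DDX10 (0.615% and 0.231%), and neither lowered any. At an unadjusted p below 0.05 by limma, 12 genes were higher and none lower with rituximab than with isotype control. The medians against isotype were 0.44 for anti-IgM, 0.35 for anti-IgG, 0.31 for LT20, 0.57 for anti-IgM-Fab2, 0.22 for rituximab-Fab2 and 0.15 for rituximab. REC1 had only 1 set of untreated arrays, so an offset between sets of untreated arrays, as measured in the other lines, could not be measured there. Its part in the rise against untreated cells was not tested.

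RNA polymerase I was represented by POLR1B, its second largest subunit, and POLR1C, a subunit shared with RNA polymerase III. Both rose with all 7 treatments of REC1, isotype control included. POLR1B was at 854, 762 and 778 with anti-IgM, against 401, 344 and 424 in untreated cells, a 2.05-fold difference (log2 1.04 ± 0.10, adjusted p = 1.11e-08 by limma). The groups did not overlap. POLR1C reached 1546, 1377 and 1528 with anti-IgM-Fab2, against 670.5, 639.7 and 699 in untreated cells (2.21-fold). Of 13 further genes of RNA polymerase I and its initiation factors, 8 rose and 1, UBTF (upstream binding factor), fell with anti-IgM in REC1, with a median of 0.40.

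Among the snoRNP genes, RRP9, a protein of the U3 particle needed for the first cuts of the rRNA precursor, moved the most. Its signal was 517, 509.6 and 419 with anti-IgM and 521, 481 and 527 with anti-IgG, against 219, 231 and 177 in untreated REC1 cells. All 6 treated arrays lay above all untreated ones, and the rises were 2.31-fold (log2 1.21 ± 0.14) and 2.45-fold (log2 1.30 ± 0.14). GAR1, of the H/ACA particles that make pseudouridine, NOLC1, a chaperone of snoRNPs, and NOP58, a core protein of the C/D particles, rose with anti-IgM by 0.86, 0.66 and 0.38 on the log2 scale. FBL (fibrillarin), the methyltransferase of the C/D particles, was at 2761, 2886 and 2831 with anti-IgM, against 2617, 2656 and 2558 in untreated cells, a log2 difference of 0.11 ± 0.06 that did not pass (adjusted p = 0.0891 by limma). NHP2, a core protein of the H/ACA particles, differed by -0.04 ± 0.10.

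The abundant nucleolar proteins were split. LYAR, a nucleolar zinc finger protein linked to proliferation, was at 1989.9, 2089.6 and 1957 with anti-IgM and at 1808, 1741 and 1739 with LT20, against 923, 814 and 907 in untreated REC1 cells. It was the only gene on the list that passed the 2-fold rule with LT20. DDX21, a helicase of the nucleolus, rose by 0.56 ± 0.07 with anti-IgM. NPM1 (nucleophosmin), a histone and ribosome chaperone, was at 3549.7, 3786 and 4475, against 3643, 4186 and 3285 in untreated cells, and the groups overlapped, whereas its 2 further probe sets were higher by 0.27 and 0.29 on the log2 scale and passed. NCL (nucleolin), which binds the rRNA precursor, was 1.11-fold higher with overlapping groups and passed narrowly (adjusted p = 0.0477 by limma). NPM1, NCL and FBL were 3 of the 4 genes with the highest mean signal of the list (4403, 4362 and 3073 over the 96 arrays), while DDX21 at 3639 and RRP1B at 2504 rose. Any compression of high signals was not tested.

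**Figure D2:**
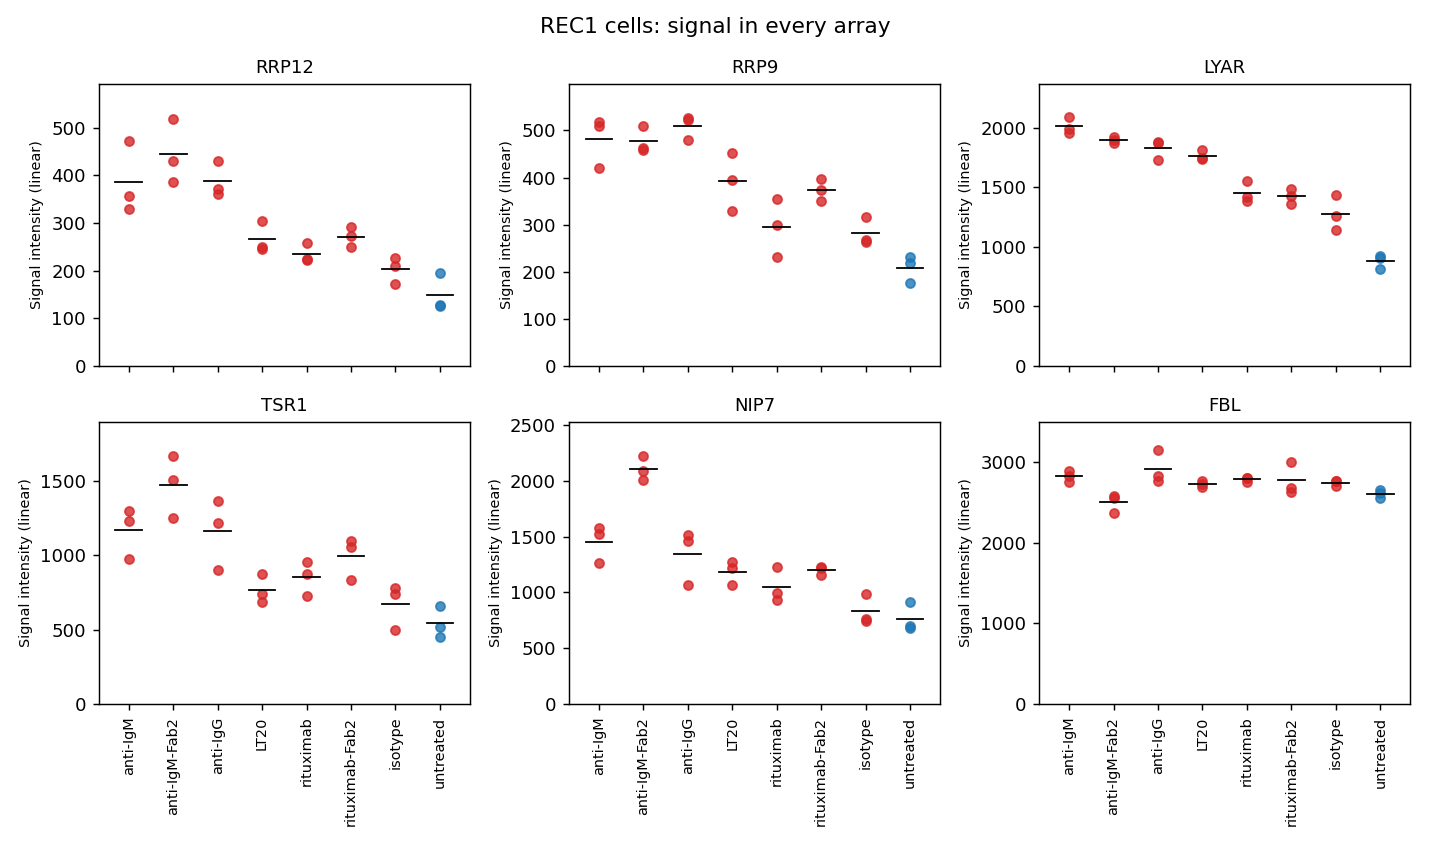
Signal intensity (linear scale from 0) of 6 genes in every REC1 array, with 7 treatments in red left of the untreated arrays in blue; bars are the means of 3 arrays. RRP12, RRP9, LYAR, TSR1 and NIP7 lie above untreated cells in all anti-IgM arrays, while FBL stays between 2558 and 2886 in untreated and anti-IgM arrays.

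By main probe set, the 40S assembly factors held the largest change of the list. RRP12, which serves late 40S maturation and export in yeast, was at 429, 519 and 387 with anti-IgM-Fab2, 358, 472 and 329 with anti-IgM and 431, 372 and 362 with anti-IgG, against 126, 128 and 195 in untreated REC1 cells. These were rises of 3.02-, 2.61- and 2.64-fold, and no treated array fell within the untreated range. The other RRP12 probe set tested in REC1 rose less with anti-IgM, by 0.47 on the log2 scale against 1.38 for the main one. The size of its rise is therefore uncertain. TSR1, a GTPase-like factor of late 40S precursors, was at 1296, 1230.3 and 974 with anti-IgM, against 453, 517 and 659 in untreated cells (2.16-fold). Its further probe sets rose by 0.45, 1.04 and 0.96 on the log2 scale, against 1.11 for the main one. DDX10, a helicase of early 40S assembly, was at 1783, 1799 and 1655, against 868, 839 and 861 (2.04-fold). PNO1, a partner of the nuclease NOB1, was at 1748, 1810.1 and 1682 with anti-IgG, against 875, 825 and 913 (2.01-fold). In all, 13 of the 15 factors rose with anti-IgM, with a median of 0.68. DDX52 and IMP4, a protein of the U3 particle, were the exceptions, with log2 differences of -0.12 and 0.22 that did not pass.

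Of the 10 factors of 60S assembly, 9 rose with anti-IgM, with a median of 0.78, and all 10 rose with anti-IgG, LT20, anti-IgM-Fab2 and rituximab-Fab2. NIP7, which acts in late steps of 60S assembly in yeast, was at 2091, 2010.4 and 2223 with anti-IgM-Fab2, against 677, 703 and 915 in untreated cells (2.78-fold). PES1, of the PeBoW complex with BOP1 and WDR12, was at 930.0, 994 and 842 with the fragment, against 428, 408 and 468 (2.12-fold). RRS1 and NOP16, both needed for early 60S precursors in yeast, rose by 0.95 each with anti-IgM. BRIX1 was the 1 gene that did not pass with anti-IgM (log2 0.20 ± 0.14), although it rose by 0.69 with the fragment.

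At 2-fold, with a mean above 100 in 1 of the 2 groups, 6 genes of the list rose with anti-IgM (RRP12, RRP9, LYAR, TSR1, POLR1B and DDX10), 12 with anti-IgM-Fab2, 5 with anti-IgG and 1 with LT20. Over all genes, 4.96%, 6.02%, 3.97% and 2.51% rose by this rule with these treatments. None passed it with rituximab, rituximab-Fab2 or isotype control, where 1.19%, 1.7% and 0.615% of all genes rose by it. The 1 gene of LT20 became 0 without Control replicate 2 and 2 without Control replicate 3, and the 0 of rituximab-Fab2 became 2 without Control replicate 3 and 1 without rituximab-Fab2 replicate 3. WDR43 was at 599, 548 and 694 with anti-IgM-Fab2, against 254, 258 and 335 in untreated cells. Against the isotype arrays, no gene of the list reached 2-fold with anti-IgM or anti-IgG (2.49% and 1.7% of all genes higher). With anti-IgM-Fab2, 3 did (NIP7, TSR1 and RRP12), by a rule that 3.41% of all genes passed. With anti-IgM in REC1, 21 further probe sets belonged to genes whose main probe set changed, and all 21 had the same sign and 20 passed. The sizes of the changes differed between probe sets, as for RRP12 and TSR1.

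With anti-IgM in REC1, genes of the same pathway outside the list rose as well, and the ribosomal protein genes tested did not. All these lists were chosen with earlier results of these data known. Of 103 further ribosome biogenesis genes tested in REC1, 82 rose and 2 fell with anti-IgM, with a median log2 change of 0.50. MAK16, of early 60S precursors, had the largest rise (1.45) and UBTF the largest fall (-0.38). Within them, 31 of 36 further 40S factors and 36 of 41 further 60S factors rose, against 7 of 13 subunits of the RNA exosome, which trims precursor ends. Of 80 ribosomal protein genes listed, 53 had a probe set of their own and 51 were tested in REC1. None of the 51 passed in either direction with anti-IgM (median 0.07). Their median lay between -0.09 and 0.13 in the 7 treatments of REC1, and 4 fell with anti-IgM-Fab2. Of the 6 B cell markers, 1 rose (CD22, log2 1.01) and 3 fell with anti-IgM in REC1, BLK the most (-3.04), and both T cell markers tested there, CD3D and CD3G, fell, with log2 changes of -1.06 and -2.27. The part of these shifts in the change of the list was not tested. MYC itself was at 4090.3, 4212 and 4359 with anti-IgM and at 3598, 3301 and 3090.2 with isotype control, against 1470.2, 1306 and 1541 in untreated REC1 cells. The rises were 2.94- and 2.31-fold, and the other 5 treatments lay between 2.25- and 2.88-fold.

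**Figure D3:**
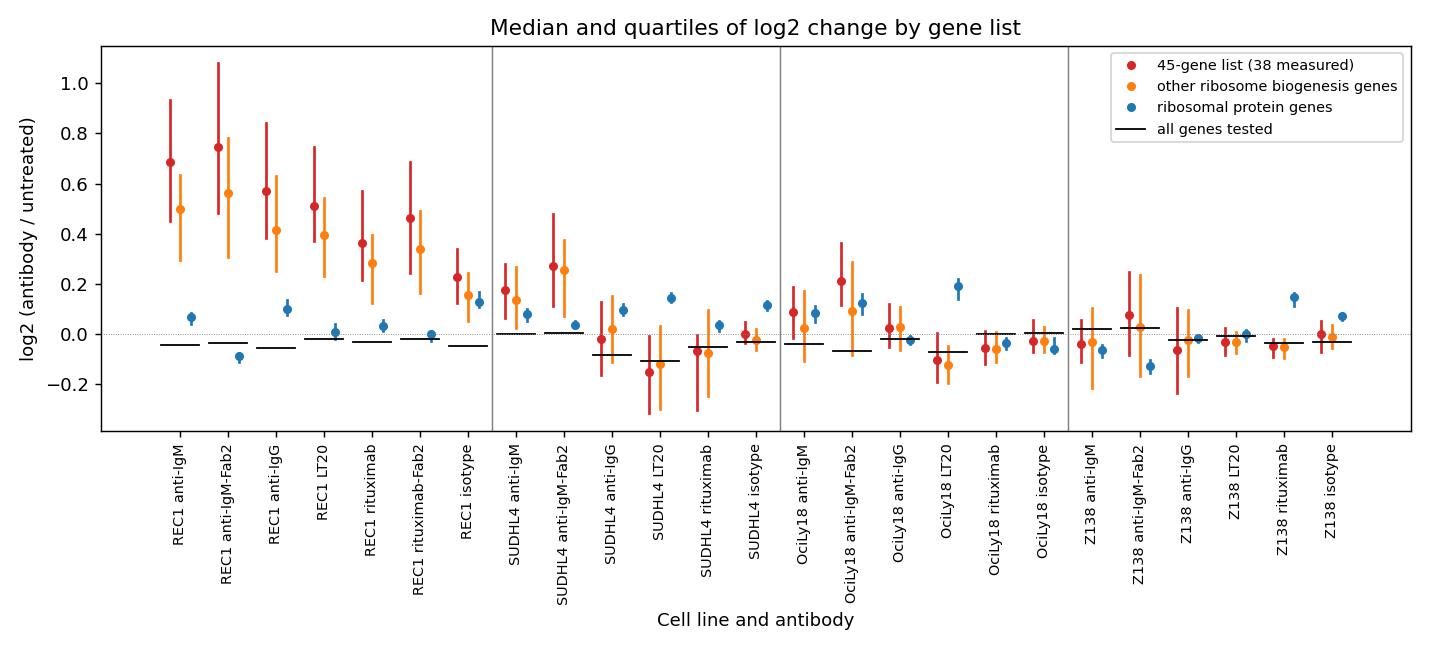
Median (points) and quartiles (bars) of the log2 change, antibody over untreated, of the list, of other ribosome biogenesis genes and of ribosomal protein genes, with the median of all genes tested as a black line, for each line and antibody. In REC1 the list and the other biogenesis genes lie above the other 2 sets with each of the 7 treatments, at medians of 0.69 and 0.50 with anti-IgM.

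The changes are given by E-box content as a description, with no test. With anti-IgM in REC1, 14 of 16 measured genes with the hexamer in their window rose (median log2 change 0.65), as did 12 of 16 without it (median 0.69) and 5 of 6 with no window (median 0.72).

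With anti-IgG, LT20 and rituximab in SUDHL4, the share of the list that rose was below that of all genes, and the share that fell was close to or below it. LT20 lowered 16 of 38 genes and raised 1, GNL2 (0 without LT20 replicate 3, and of opposite sign against Control replicates 4-6), whereas 37.3% of all genes were lower and 17.2% higher. The genes that fell were 42.1% of the list. Rituximab lowered 12 and raised 2, or 1 without Control replicate 2 (30.4% of all genes lower, 19.2% higher), and anti-IgG lowered 6 and raised 5 (36.1% lower, 19.6% higher). The medians were -0.15, -0.07 and -0.02, against -0.11, -0.05 and -0.08 over all genes. RRP9 was at 144, 161 and 124 with LT20, against 224, 229.5 and 236 in untreated cells, a log2 difference of -0.69 ± 0.13 (adjusted p = 0.000113 by limma) with no overlap. RRS1 was at 726, 549 and 428 with LT20, against 893, 829 and 902 (log2 -0.66 ± 0.12). DDX52 fell most with LT20 (log2 -0.75 ± 0.11), though to 72.1, 64.9 and 67.5 against 111, 109 and 125, close to the limit of 100. DDX10 fell with anti-IgG to 526, 514 and 521, against 731, 732 and 696, and IMP4 fell with rituximab to 910.5, 938 and 955, against 1284, 1264 and 1252.

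A few genes went the other way in SUDHL4. RRP12 was at 168, 169 and 171 with anti-IgG, against 125, 109 and 48.3 in untreated cells, 1.95-fold higher on the log scale (adjusted p = 0.00387 by limma), from low signals that spread widely. GNL2, a GTPase of 60S assembly, was at 889, 931 and 966, against 704, 724 and 688. NOP58 and DDX21 rose by 0.31 and 0.20 with anti-IgG, though DDX21 was at -0.03 against Control replicates 1-3. HEATR1, of the early 40S precursor, rose by 0.37 with rituximab. Of 100 further ribosome biogenesis genes, 38 fell and 12 rose with LT20, shares near those of all genes (37.3% lower, 17.2% higher), with POLR1G, a subunit of RNA polymerase I, lowest (-1.31) and EXOSC4, of the exosome, highest (0.99). MYC fell to 1517, 1454 and 1723 with anti-IgG, against 2726, 2608 and 2729 in untreated cells, 1.72-fold lower. It was 1.54-fold lower with LT20 and 1.46-fold lower with rituximab.

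The difference between REC1 and SUDHL4 was tested directly, as the change in REC1 minus the change in SUDHL4 with the same antibody. For anti-IgG, 31 of 38 genes had a higher change in REC1 and none a lower one (22.1% and 21.3% of all genes). For LT20 the counts were 32 and 0 (23.6% and 15.1%), and for rituximab 23 and 0 (16.1% and 12.6%). The median differences were 0.66, 0.66 and 0.46 on the log2 scale. These changes are over untreated arrays, and isotype control alone raised 34.2% of the list in REC1 and 0% in SUDHL4. Against isotype control, rituximab raised only DDX10 in REC1. The part of the isotype response in these differences was not tested. RRP9 differed most with anti-IgG, by 1.77 ± 0.21 (adjusted p = 1.77e-10 by limma), and with LT20, by 1.60 ± 0.21. RRS1 differed most with rituximab, by 1.07 ± 0.14. RRP12, higher in both lines with anti-IgG, differed by 0.44 ± 0.28, which did not pass (adjusted p = 0.219 by limma).

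**Figure D4:**
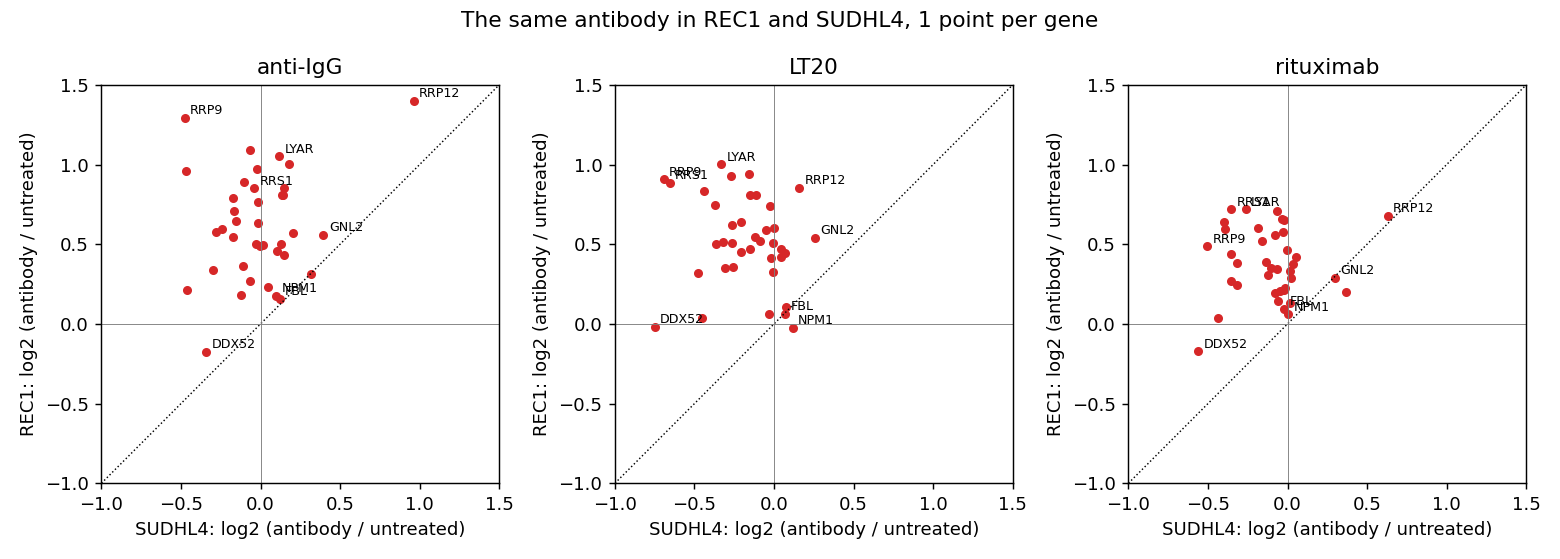
Log2 change in REC1 (y axis) against SUDHL4 (x axis) with anti-IgG, LT20 and rituximab, 1 point per gene, with the line of equal change dotted. Most points lie above the dotted line; RRP9 is far to the upper left with anti-IgG, at -0.48 in SUDHL4 and 1.30 in REC1, and RRP12 is high in both.

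With anti-IgM, SUDHL4 showed a modest rise of the list that was led by NGDN (neuroguidin), a factor of early 40S assembly. Anti-IgM raised 13 of 38 genes (34.2%) and lowered 1 (6.12% of all genes higher, 5.13% lower), and anti-IgM-Fab2 raised 23 (60.5%) and lowered 1 (15.9% and 12.6%). The median log2 changes were 0.18 and 0.27. Without single arrays of either group, the count of 13 dropped to between 5 and 9. It was 5 without Control replicate 3, 7 without anti-IgM replicate 2 and 8 without Control replicate 2 or anti-IgM replicate 1. NGDN was at 1136, 1103 and 1125 with anti-IgM and at 1309, 1213 and 1329 with the fragment, against 510.5, 543 and 556 in untreated cells. These were rises of 2.09- and 2.39-fold, with adjusted p-values of 1.63e-09 and 1.31e-11 by limma. NGDN was the only gene of the list past 2-fold in SUDHL4, where 0.0139% and 0.153% of all genes passed with the 2 treatments. The first share is NGDN alone, and NGDN was named here because earlier results of these data named it. Its second probe set averaged 10.3 in this line and was not tested, so the rise rests on 1 probe set.

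NIP7 was the next in SUDHL4, at 677, 672 and 572 with the fragment, against 331, 390.2 and 359 in untreated cells (1.78-fold). POLR1C and GAR1 rose by 0.48 and 0.34 with anti-IgM, and RRP12 and NOP2 by 0.81 and 0.78 with the fragment. NOP2 is a methyltransferase of 60S assembly. Against Control replicates 4-6, RRP12, at 0.40, no longer passed, and NOP2 was at -0.19. The rise of NOP2 was smaller than the offset between the 2 untreated sets, in which it was at 598, 635 and 541 in Control replicates 4-6, against 245, 363 and 303 in replicates 1-3. NPM3, a relative of nucleophosmin, fell to 631, 621 and 619 with anti-IgM, against 866, 798 and 846. Of 100 further ribosome biogenesis genes, 29 rose and 7 fell with anti-IgM. MYC was 1.07-fold lower with anti-IgM, which did not pass, and 1.17-fold lower with the fragment.

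NGDN rose with both forms of anti-IgM in all 4 lines, by the same 1 probe set in each. Its other probe set averaged 22.2 in REC1, 20.8 in OciLy18 and 16.4 in Z138 and was not tested. In OciLy18 NGDN was at 732, 817 and 832 with anti-IgM and at 1095, 1144 and 1116 with the fragment, against 623, 588 and 548 in untreated cells. In Z138 it was at 1081, 1163 and 1091 with anti-IgM and at 1335, 1256 and 1308 with the fragment, against 708, 736 and 775. In REC1 it was at 1329, 1295 and 1080.2 with anti-IgM, against 801, 864 and 842. No treated array overlapped the untreated ones in any of these comparisons. With rituximab and LT20, by contrast, it fell in SUDHL4 by 0.35 and 0.31 on the log2 scale.

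**Figure D5:**
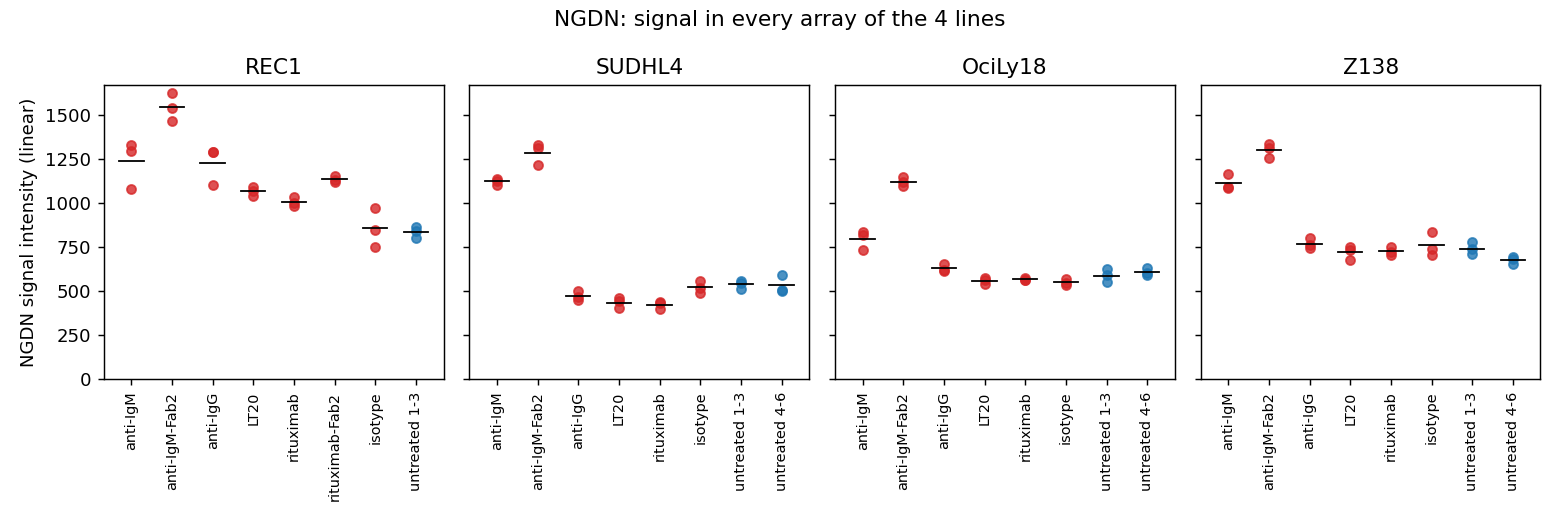
NGDN signal intensity (linear scale from 0) in every array of the 4 lines, with treatments in red left of the untreated sets in blue; bars are means of 3 arrays. In SUDHL4, OciLy18 and Z138 the 2 forms of anti-IgM stand above all other groups, at 1103 to 1329 against 510.5 to 556 in Control replicates 1-3 of SUDHL4.

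In OciLy18 more genes of the list rose than fell with both forms of anti-IgM, more so with the fragment. In Z138 genes moved in both directions, and the share that rose was close to or below that of all genes. Against Control replicates 4-6, more genes were higher with both forms of anti-IgM in Z138. Isotype control raised a similar number against that set, though none against replicates 1-3. The contrast therefore depends on the untreated set, and shares of all genes were not computed against replicates 4-6. In OciLy18, anti-IgM raised 11 genes and lowered 4 (20.1% of all genes higher, 28.9% lower), anti-IgM-Fab2 raised 21 and lowered 2 (20% and 33.1%), or 55.3% of the list higher, and anti-IgG raised 4 and lowered none (13.7% and 15%). The medians were 0.09, 0.21 and 0.02, against -0.04, -0.07 and -0.02 over all genes. In Z138, anti-IgM raised 5 and lowered 5 (23.6% and 19.3%), the fragment raised 11 and lowered 3 (28.3% and 22.9%), and anti-IgG raised 6 and lowered 11 (22.4% and 26.3%). The medians were -0.04, 0.08 and -0.06. Without 1 array, the 5 and 5 genes of anti-IgM in Z138 became between 1 and 5 higher and between 3 and 6 lower, with 1 higher without Control replicate 3, 3 higher without Control replicate 2 or anti-IgM replicate 1, and 3 lower without Control replicate 2 or 3 or anti-IgM replicate 1 or 3. With the fragment in Z138, 1 was lower without Control replicate 2 or fragment replicate 2. The 4 genes higher with anti-IgG in OciLy18 were 2 without Control replicate 5, Control replicate 6 or anti-IgG replicate 1. No gene of the list passed 2-fold in either line, where at most 2.99% of all genes were higher and 2.51% lower by this rule with any treatment.

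RRP12 was again prominent. In OciLy18 it was at 233, 267 and 280.3 with anti-IgM, against 143, 148 and 176 in untreated cells, and at 220.3, 228 and 225 with anti-IgG, against 123, 99.4 and 136. In Z138 it was at 263, 261 and 222 with the fragment, against 164, 143 and 117. NIP7 rose by 0.63 and 0.82 with the 2 forms of anti-IgM in OciLy18, and by 0.57 with the fragment in Z138. IMP4 fell in OciLy18 with anti-IgM to 673, 711 and 658, against 997, 939 and 971. RRS1 fell in Z138 with anti-IgG to 389, 341 and 334, against 584, 478 and 578, and WDR43, POLR1B and WDR75 fell with it by 0.41, 0.39 and 0.34 on the log2 scale. TSR1, UTP20, PNO1 and PES1 were higher there by 0.31, 0.26, 0.24 and 0.24, with a further probe set of opposite sign for TSR1 and PNO1. Against Control replicates 1-3, UTP20 was at -0.30 and TSR1 at -0.00589, and PES1, at 0.14, no longer passed. MYC was 2.72-fold lower with anti-IgG in Z138, at 1066, 992 and 988 against 2375, 2884 and 3065 in untreated cells, and differed by at most 1.08-fold in any treatment of OciLy18.

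NOLC1 fell with the main probe set in OciLy18 and Z138 with both forms of anti-IgM (log2 -0.13 to -0.27), but at least 1 further probe set had the opposite sign in each of these 4 comparisons, so its direction is uncertain there. WDR75 was lower in Z138 with anti-IgM by either set of untreated arrays (log2 -0.33 and -0.43), whereas WDR12 and NOP16, at -0.19 and -0.14, were at 0.20 and 0.00539 against Control replicates 4-6. NPM3 and NHP2 were lower in OciLy18 with anti-IgM (log2 -0.30 and -0.22), and NHP2, at -0.0906, no longer passed against Control replicates 4-6.

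Against Control replicates 1-3, anti-CD20 antibodies and isotype control changed no gene of the list in these lines, except LT20 in OciLy18. Genes did pass against Control replicates 4-6, a set that itself differed from replicates 1-3. No gene passed in either direction with rituximab (1.79% of all genes higher and 1.23% lower in OciLy18, 1.91% and 1.28% in Z138), with LT20 in Z138 (2.79% and 1.67%), or with isotype control in OciLy18 (0% and 0%), Z138 (0% and 0%) or SUDHL4 (0% and 0.0139%). At an unadjusted p below 0.05 by limma, the counts with rituximab were 1 higher and 7 lower in OciLy18, and 1 higher and 4 lower in Z138. LT20 in Z138 gave 0 higher and 2 lower, and LT20 in OciLy18 gave 3 higher and 13 lower. With isotype control the counts were 0 higher and 2 lower in OciLy18, 2 of each in Z138 and 0 of each in SUDHL4. LT20 in OciLy18 raised UTP20 and lowered 6 genes (3.55% and 13.2%), among them POLR1C (-0.40), RRS1 (-0.37), LYAR (-0.29) and IMP4 (-0.26, or -0.0325 and no longer passing against Control replicates 4-6). Without LT20 replicate 2, 3 genes were lower, and the count of higher genes was 0 without LT20 replicate 1 or 2 and 2 without replicate 3. For rituximab in OciLy18, 1 gene was lower without rituximab replicate 3.

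The change with anti-IgM over untreated cells was larger for most genes of the list in REC1 than in OciLy18 or Z138. Isotype control, which raised 34.2% of the list in REC1, was not subtracted. REC1 minus OciLy18 was positive for 26 genes and negative for 1 (18.1% and 23.8% of all genes), and REC1 minus Z138 was positive for 28 and negative for none (17.2% and 31.1%). The median differences were 0.61 and 0.74. OciLy18 and Z138 differed for only 5 genes, 4 higher and 1 lower in OciLy18 (7.56% and 13.8%). RRP9 had the largest difference from both lines, 1.38 ± 0.21 from OciLy18 and 1.22 ± 0.21 from Z138. For RRP12, REC1 exceeded Z138 by 0.98 ± 0.28, but the difference from OciLy18, 0.64 ± 0.28, did not pass (adjusted p = 0.0655 by limma).

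Set directly against each other, the anti-IgM fragment gave higher signals than whole anti-IgM for 4 genes in REC1 (4.01% of all genes higher, 2.87% lower), 7 in OciLy18 (2.02% and 4.46%), 6 in Z138 (4.5% and 4.87%) and 1, LYAR, in SUDHL4 (0.892% and 1.1%). No gene of the list was lower with the fragment in these lines. At an unadjusted p below 0.05, 2 were lower in REC1 and none in the other lines. The 4 genes in REC1 were NIP7, BRIX1, NGDN and POLR1C. NIP7 was at 2091, 2010.4 and 2223 with the fragment, against 1573, 1523 and 1260.0 with whole anti-IgM (log2 0.54 ± 0.14, adjusted p = 0.0184 by limma). NGDN differed by 0.50 ± 0.06 in OciLy18, 0.33 ± 0.09 in REC1 and 0.23 ± 0.06 in Z138, and by 0.19 ± 0.07 in SUDHL4, which did not pass. Since the applied mass of fragment and antibody may differ, the presence of the Fc part and the dose cannot be told apart. Rituximab-Fab2 and rituximab did not differ for any gene of the list in REC1 (0% of all genes in either direction). At an unadjusted p below 0.05, 2 genes were higher and none lower with the fragment.

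The 2 sets of untreated arrays differed for many genes, both of the list and of all genes tested. This bears on all changes of similar size in SUDHL4, OciLy18 and Z138. Control replicates 4-6 were higher than replicates 1-3 for 10 genes and lower for 9 in SUDHL4 (25.7% and 23.4% of all genes), higher for 3 and lower for 8 in OciLy18 (15.4% and 19.6%), and higher for 6 and lower for 13 in Z138 (21.8% and 20.2%). The median offsets were 0.01, -0.08 and -0.10. Against Control replicates 4-6 in place of 1-3, isotype control in Z138 raised 16 genes and lowered 9, where it had changed none. The falls with LT20 and rituximab in SUDHL4 numbered 20 and 17 against the other set, and the rises with the 2 forms of anti-IgM 16 and 20. The share of all genes was not computed for these counts, so they cannot be told apart from the offset over all genes. The rise of NGDN with anti-IgM in SUDHL4 was of the same sign and passed against either set.

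Over the 25 treatments, RRP9, RRP12 and NIP7 had the widest ranges of log2 change. RRP9 ranged between -0.69 (LT20 in SUDHL4) and 1.30 (anti-IgG in REC1), RRP12 between -0.35 (isotype control in SUDHL4) and 1.59 (anti-IgM-Fab2 in REC1), and NIP7 between -0.24 (LT20 in OciLy18) and 1.47 (anti-IgM-Fab2 in REC1). FBL and NCL had the narrowest ranges, between -0.11 and 0.16 and between -0.11 and 0.23.

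Starting levels in untreated cells differed between lines for most genes of the list, as they did for most of all genes tested. The differences of the list were mostly less than 2-fold. In REC1, 9 genes were higher and 15 lower than in Z138 (37.2% and 32.8% of all genes), 12 higher and 15 lower than in OciLy18 (37.9% and 31.6%), and 12 higher and 15 lower than in SUDHL4 (42.3% and 30.8%). NHP2 averaged 1491 in REC1 (1463 to 1509.6), against 2662, 2834 and 2925 in Z138, OciLy18 and SUDHL4. The part of these levels in the changes with treatment was not tested. At 2-fold, REC1 differed from each of Z138, OciLy18 and SUDHL4 for 1 of 38 genes (24.9%, 24.3% and 26.4% of all genes, either direction). DDX10 averaged 856 ± 14.7 in untreated REC1 cells (SD, n = 3), against 358 ± 56.2 in Z138 (SD, n = 6). POLR1B averaged 389.7 ± 41.5 in REC1, against 819 ± 56.8 in OciLy18, and IMP4 521 ± 15.0 in REC1, against 1311 ± 61.1 in SUDHL4. RRP9 averaged 209 in REC1, 242 in SUDHL4, 256 in OciLy18 and 241 in Z138, levels that overlapped between the lines.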

How the data were processed

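The series held 96 samples on Affymetrix HG-U133 Plus 2.0 arrays, 1 array each. The deposited values are linear signal intensities, made by the authors with GCOS per the methods (MAS5 per the submitters' processing notes) and scaled to nearly equal array totals, so depth is not defined and the number of arrays limits the precision. The authors' change-factor columns were not used. Of 54675 probe sets, 41097 named 1 gene, 1801 several and 11777 none. Signals below 1 were set to 1 and log2 transformed. Probe sets whose mean exceeded 100 in any group of the line entered limma 3.58.1 in R 4.3.3 (lmFit, eBayes with trend), 1 model per line over 24 arrays, with Benjamini-Hochberg adjustment over all probe sets tested. The fit was tested on simulated data. Differences between lines came from 1 model over the lines. The 2-fold rule required an adjusted p below 0.05, over 2-fold and a mean above 100 in 1 of the 2 groups. A gene was counted by its single-gene probe set of highest mean. Genes named in a comparison were the 4 with the largest rise, the 4 with the largest fall and those at 2-fold, with NGDN in SUDHL4 named because earlier results named it, and with further genes of each role named after their values were seen. The members and lists were chosen with earlier results of these data known. Alternatives were the other control triplicate, isotype arrays as control, quantile normalization, an offset of 16, the mean of all probe sets, no filter, a replicate block and leaving out each array.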

Additional observations from a re-analysis of the deposited data

Results flagged for a closer look

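The change of the list differed between lines by a direct test of the difference (limma, adjusted p below 0.05 over all genes). With LT20, 32 genes differed between REC1 and SUDHL4 (23.6% of all genes had a higher change in REC1 and 15.1% a lower one). With anti-IgG 31 differed (22.1% and 21.3%), and with rituximab 23 (16.1% and 12.6%). All these genes of the list had the larger log2 change in REC1. All changes were over untreated arrays, and isotype control also raised genes of the list in REC1. With anti-IgM, 28 genes differed between REC1 and Z138 (17.2% of all genes higher in REC1, 31.1% lower). Between REC1 and OciLy18, 27 differed (18.1% and 23.8%), and DDX52 had the lower change in REC1 (-0.41). Between OciLy18 and Z138, 5 differed. There, 10.5% of the list was higher and 2.63% lower in OciLy18, against 7.56% and 13.8% of all genes.

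Among 6 untreated arrays of a line, 1 array stood far from the other 5 for 4 genes. RRS1 was low in 1 SUDHL4 array, at 655.74 against 829 to 902. BYSL was high in 1 OciLy18 array, at 511.61 against 322 to 381, as was POLR1B, at 929.52 against 771 to 815. DDX52 was low in 1 Z138 array, at 144.65 against 169.78 to 182. These are 4 of 114 groups examined, and chance alone would single out about 1 in 20.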

How the results depend on the processing

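Among genes named for the size of their change in REC1, no log2 change turned sign under the alternatives run there. REC1 had no other set of untreated arrays, so that alternative could not be run, and genes with small changes were not checked. Many counts in the other lines depended on which untreated arrays were used, and REC1 was not put to the same check. The cause was not tested. Shares of all genes were not computed under the alternatives, except with isotype arrays in REC1. Signal over background limits genes near 100, such as RRP12 and DDX52 in SUDHL4, and 3 arrays a group limit all values.

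Against the other set of untreated arrays, the counts that moved by over 1.5 times were as follows. In OciLy18, higher genes numbered 10 with LT20, 20 with anti-IgM, 7 with isotype control and 8 with rituximab, and lower genes 9 with anti-IgG, 4 with anti-IgM-Fab2, 5 with isotype control and 6 with rituximab. In SUDHL4, higher genes numbered 4 with LT20, 10 with anti-IgG, 8 with isotype control and 6 with rituximab, and lower genes 6 with anti-IgM, 3 with anti-IgM-Fab2 and 10 with isotype control. In Z138, higher genes numbered 9 with LT20, 13 with anti-IgM, 17 with anti-IgM-Fab2, 16 with isotype control and 10 with rituximab, and lower genes 6 with LT20, 17 with anti-IgG, 9 with isotype control and 7 with rituximab. The 2-fold calls over the other treatments became 2 in OciLy18 and 3 in SUDHL4. Log2 changes that turned sign were those of DDX21 with anti-IgG in SUDHL4 (-0.0253), GNL2 with LT20 (-0.22) and rituximab (-0.18) and NOP2 with anti-IgM-Fab2 (-0.19) in SUDHL4, NOLC1 with anti-IgM (0.0320) and NOP14 under anti-IgG (-0.00324) in OciLy18, then for Z138 NOLC1 (0.0833), NOP16 (0.0054), NOP58 (-0.0730) and WDR12 (0.20) with anti-IgM, NOLC1 (0.18) and WDR12 (0.18) with anti-IgM-Fab2, and TSR1 (-0.00589) and UTP20 (-0.30) with anti-IgG.

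With isotype arrays as control in REC1, 2-fold rises numbered 0 with LT20, anti-IgG and anti-IgM and 3 with anti-IgM-Fab2, 1 gene was lower with anti-IgM-Fab2, and higher genes numbered 20 with LT20, 1 with rituximab and 10 with rituximab-Fab2. After quantile normalization, 2-fold rises numbered 0 with LT20 and 3 with anti-IgG in REC1 and 1 over the other treatments of SUDHL4, lower genes 2 with LT20 in OciLy18, 0 with isotype control in REC1, 8 with anti-IgM and 6 with anti-IgM-Fab2 in Z138, and higher genes 9 with anti-IgG in SUDHL4. An offset of 16 left 0 genes at 2-fold with LT20 in REC1. With the mean of all probe sets of a gene, 2-fold rises numbered 2 with anti-IgG and 2 with anti-IgM in REC1 and 0 with either form of anti-IgM in SUDHL4. Lower genes then numbered 3 with LT20, 1 with anti-IgM-Fab2 and 1 with rituximab in OciLy18, 1 with anti-IgM and 0 with isotype control in REC1 and 3 with anti-IgG in SUDHL4, and higher genes 2 with LT20 in OciLy18, 3 with anti-IgG, 8 with anti-IgM and 1 with rituximab in SUDHL4, and 2 with anti-IgG, 2 with anti-IgM and 7 with anti-IgM-Fab2 in Z138. NOLC1 turned to 0.13 and 0.14 with anti-IgM and anti-IgM-Fab2 in OciLy18 and 0.0828 with anti-IgM-Fab2 in Z138, and TSR1 to -0.00628 with anti-IgG in Z138. Without the filter, lower genes numbered 3 with LT20 in OciLy18, 0 with isotype control in REC1 and 3 with anti-IgM in Z138, and higher genes 0 with LT20 in OciLy18, 7 with anti-IgM and 1 with rituximab in SUDHL4 and 3 with anti-IgM in Z138.

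Leaving out 1 array at a time gave ranges of higher genes of 30 to 31 with anti-IgM, 30 to 32 with anti-IgG, 29 to 31 with LT20 and 19 to 24 with rituximab in REC1. Ranges that moved by over 1.5 times were 0 to 2 for 2-fold rises with LT20 and with rituximab-Fab2 in REC1, 3 to 8 lower and 0 to 2 higher with LT20 and 0 to 1 lower with rituximab in OciLy18, 2 to 3 higher in OciLy18 under anti-IgG, 0 to 1 lower with isotype control in REC1, 3 to 6 lower and 1 to 5 higher with anti-IgM and 1 to 4 lower with anti-IgM-Fab2 in Z138, and 0 to 1 higher with LT20, 5 to 9 with anti-IgM and 1 to 3 with rituximab in SUDHL4. The replicate numbers did not pair the arrays: correlations of same-numbered deviations ran between -0.338 and 0.359 in 22 comparisons, and all pairs exceeded 0.1 in 2. With the replicate number as a block, no count moved by over 1.5 times (30 higher with anti-IgM in REC1), and anti-IgG against Control replicates 4-6 could not be blocked.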
